A study of Homo sapiens with 15 samples.

Results

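The passaged course followed H1 cells, an established human embryonic stem cell line, from day 2 to day 10 of differentiation after they had been dissociated and replated on day 2 without a WNT inhibitor. It comprised 5 libraries of bulk RNA sequencing, chosen by their sample labels out of 15 in the series. The day 2 library came from mesendoderm progenitors under spontaneous differentiation, and the libraries of days 3, 5, 7 and 10 from such cells carrying the label of passaging on day 2. All cells were wild-type and, as the study's methods describe, had been induced with CHIR-99021, an activator of WNT signalling, on day 0 and given insulin on day 1. For passaging, the methods describe dissociation with EDTA and plating into new Matrigel-coated wells, so a new surface, a lower density and handling itself came together. The study describes passaging at a fixed split into DF medium with no further treatment for these samples, and elsewhere states that the ROCK inhibitor Y27632 was added in its later differentiation experiments. Whether insulin was added to these wells is not given in the sources used here. Each day had 1 library and the labels name no separate cultures, so differences between days carry counting error only and no test.

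In the embryo, WNT and NODAL signals form the primitive streak, from which mesoderm leaves as presomitic and cardiac precursors. Cardiac precursors then switch on a set of transcription factors that includes NKX2-5, GATA4, MEF2C, TBX5 and HAND2, and these drive the genes of the sarcomere. The sarcomere is built of thin filaments of actin with troponin and tropomyosin, thick filaments of myosin, and Z-discs to which titin is anchored. In the usual protocol a WNT inhibitor is added at the mesoderm stage. The question here was in which order genes switched when replating took the place of the inhibitor.

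The libraries held 13682085 to 20250115 counts, with the fewest on day 3 and the most on day 2, and 26906 to 28281 genes were above 0. The labels name a library kit for long reads while the processing notes name short-read tools, so values scaled to gene length carry that doubt. Levels are the deposited FPKM values, which are counts scaled to the exonic length of the gene and to the library total. Genes of the mitochondrial genome took 4.63% of counts before replating, 1.53% a day later and 10.3% in the last library, and the step counts without them were within 1.5 times the values given here. The cardiomyocyte markers TNNT2, MYH6, ACTN2, TTN, MYL7 and NKX2-5 were all below 1.1 FPKM on day 2 and between 32 and 1868 FPKM on day 10. In bulk samples fewer cells of a type and less RNA per cell cannot be told apart. In what follows, a series of 5 values gives FPKM on days 2, 3, 5, 7 and 10 in that order. A gene is called higher or lower between neighbouring days when log2(FPKM + 1) differed by at least 1, a scale that understates changes of low genes. Folds are ratios of FPKM with exact 95% intervals for counting error.

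Of 17930 genes that reached an FPKM of 1 in at least 1 of these libraries, 2498 (13.9%) differed between days 2 and 3, 2530 (14.1%) between days 3 and 5, 1935 (10.8%) between days 5 and 7 and 1521 (8.48%) between days 7 and 10. Higher genes were 57.6% of those that differed in the first step with FPKM, 68.5% with TPM and 46.8% with median-of-ratios scaling, so the balance of directions in that step depended on the scaling. The median difference over all genes in that step was 0.10 on log2(FPKM + 1), and 0.29 with TPM. Counted per day, the replating step had the most. Among protein-coding genes, 1419 differed in the single day after replating, against 703.5, 507.5 and 282.7 per day in the later steps. Undivided, 1407 differed from day 3 to day 5. Differences between a pair of libraries do not add up over days, so the division can favour the shortest step. Of the 806 protein-coding genes higher on day 3, 193 were lower again on day 5 and 85 went on to be higher.

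A protein-coding gene was counted as having a switch when its highest FPKM was at least 5 and log2(FPKM + 1) spanned at least 2. It was called on in each library where it held at least 50% of its own highest FPKM. By this rule 1752 of 12926 protein-coding genes (13.6%) had a switch. At this threshold 248 genes were off by day 3 and stayed off (1.92%), 299 by day 5 (2.31%), 172 by day 7 (1.33%) and 13 by day 10 (0.101%). On by day 3 and staying on were 25 genes (0.193%), 114 by day 5 (0.882%), 303 by day 7 (2.34%) and 173 by day 10 (1.34%). The balance turned with the threshold. With 25% of the highest FPKM as on, 183 genes were on by day 3 and 123 off by day 3, 50 were on by day 10 and 356 off by day 10, and 37.5% of the 1752 genes kept their class. Whether switching off preceded switching on is therefore not settled by these classes. A further 312 genes (2.41%) were on for a time and off again, 96 of them on day 3 alone and 51 on day 5 alone, and 93 (0.719%) followed other patterns. In 1331 of the 1752 genes, each of the on and off calls was clear of the counting error.

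**Figure D1:**
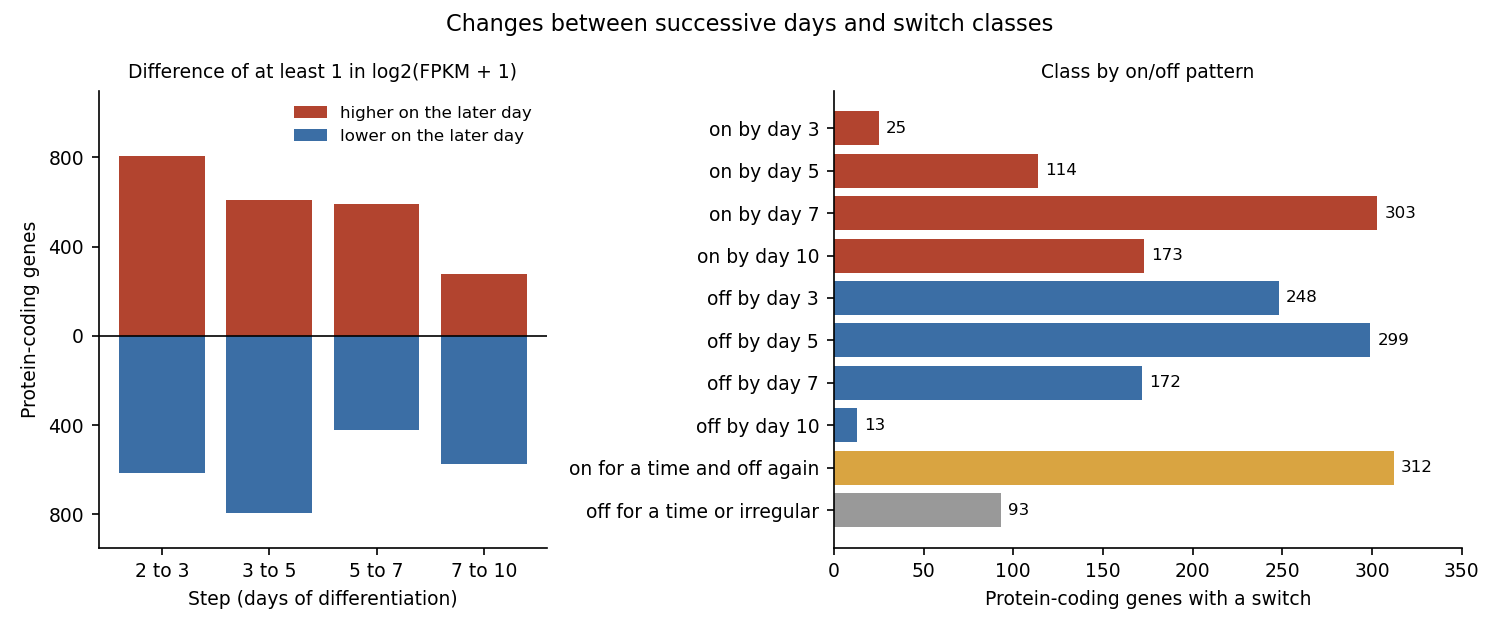
Left, the number of protein-coding genes higher (red, above 0) or lower (blue, below 0) on the later day of each step by at least 1 in log2(FPKM + 1). Right, the number of genes in each class of on and off pattern, red for on, blue for off, yellow for on for a time and grey for other patterns. Off by day 3 and off by day 5 hold 248 and 299 genes, whereas on by day 3 holds 25 and on by day 7 holds 303, at a threshold of 50% of the highest FPKM.

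Primitive streak and presomitic genes were already low 1 day after replating. Of 16 primitive streak genes above the filter, 12 were lower on day 3 and 1 was higher, with a median difference of -2.79, beside 5.91% lower and 8.02% higher among all genes. TBXT, the brachyury factor of the streak, had 95.3, 1.91, 0, 0 and 0 FPKM and was 49.9-fold (95% interval 39.3 to 64.4) lower on day 3. MIXL1, a homeobox factor of mesendoderm, had 199, 2.33, 1.77, 6.23 and 8.33 FPKM. CER1, a secreted inhibitor of NODAL, BMP and WNT, had 174, 0.18, 0, 0.11 and 0.05 FPKM and was 978-fold (95% interval 334 to 4744) lower on day 3, where it had 3 counts. These genes were high on day 2 alone, although MIXL1 came back to a low level on days 7 and 10. EOMES, a T-box factor of the streak, had 128, 3.52, 0.34, 0.11 and 0 FPKM, and LHX1 had 177, 23.6, 0.8, 0 and 0.09 FPKM. On log2(FPKM + 1) the list median difference from day 3 to day 5 was -0.99. In that step 8 genes of the list were lower, beside 7.89% of all genes.

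Presomitic and nascent mesoderm genes followed the same course. Of 14 above the filter, 13 were lower on day 3 and none was higher, with a median of -3.07. Among all genes 5.91% were lower and 8.02% higher. MESP1, a factor of the earliest cardiac mesoderm, had 81.8, 2.59, 0.22, 0.68 and 0.31 FPKM, and its neighbour MESP2, which drives somite boundaries, had 118, 2.71, 0.18, 0.07 and 0.18 FPKM. These are similar neighbouring genes, and how the counting split their reads is not known. DLL3, a Notch ligand of the presomitic mesoderm, had 612, 28.1, 3.55, 1.27 and 0.5 FPKM and was 21.8-fold (95% interval 20.4 to 23.2) lower on day 3. DLL1, a second Notch ligand, had 155, 6.53, 8.25, 1.62 and 1.46 FPKM. APLNR, the apelin receptor of early mesoderm, kept more of its level, with 811, 217, 22.7, 6.76 and 1.54 FPKM. Thus DLL3 was at 4.6% of its highest FPKM on day 3 and APLNR at 26.8%.

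Genes of glycolysis and of the response to low oxygen were lower on day 3 as well. In glycolysis, 11 of 18 genes were lower and 1 was higher, with a median difference of -1.32, beside 5.91% lower and 8.02% higher among all genes. LDHA, the lactate dehydrogenase subunit that favours lactate, had 313, 37.4, 20, 21.9 and 17.5 FPKM and was 8.35-fold (95% interval 8.05 to 8.67) lower on day 3. ENO1, an enolase, had 699, 276, 140.1, 137 and 88.1 FPKM, PGK1 had 301, 44.7, 40.6, 60.2 and 60.7 and TPI1 had 380.2, 197, 84.2, 161 and 168. These enzymes stayed below their day 2 level in all later libraries. Of 13 low-oxygen genes above the filter, 7 were lower on day 3 and 1 was higher, with a median of -1.45 against the same shares. BNIP3, a mitophagy receptor, had 130.4, 11.3, 8.94, 9.11 and 12.7 FPKM. PDK1, which holds pyruvate out of the mitochondrion, had 25.4, 1.78, 20.1, 77.7 and 81.1 FPKM, lowest on day 3 and highest on day 10. Of 10 low-oxygen genes with a highest FPKM of at least 5, 5 were highest on day 2 and 5 on day 10. Among all 9147 protein-coding genes at that level, 2142 were highest on day 2 and 2100 on day 10. The summed FPKM of the low-oxygen list was 399, 89.1, 80.2, 148 and 186. The fraction of counts that the mitochondrial genome took was also at its lowest on day 3, and its part in these differences was not tested.

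Other genes appeared within a day of replating. CFC1, a co-receptor for NODAL, had 2.3, 257, 38.9, 6.9 and 4.99 FPKM and was 112-fold (95% interval 89.2 to 141) higher on day 3. CFC1 has a near-identical copy, CFC1B, so its counts are uncertain. TMEM88, a membrane protein known to restrain WNT signalling in cardiac precursors, had 4.97, 368, 218, 105 and 71.4 FPKM and was 74.1-fold (95% interval 60 to 92.5) higher on day 3. SFRP5, a secreted WNT antagonist, had 0.18, 57.5, 6.68, 1.2 and 0.73 FPKM. The peaks of CFC1, TMEM88 and SFRP5 lay on day 3, and all were lower in each following library. CRB2, an apical polarity protein, had 0.02, 34.7, 27.5, 33 and 17.6 FPKM and was 1487-fold (95% interval 508 to 7217) higher on day 3, over 3 counts on day 2. COL2A1, the fibrillar collagen of cartilage, had 1.09, 124, 749, 1059 and 503 FPKM. CRB2 thus kept a level of its own from day 3, whereas COL2A1 was higher again on days 5 and 7. VIM, the intermediate filament vimentin, had 30.6, 241, 420.3, 163 and 108 FPKM, and the epithelial keratin KRT8 had 105, 394, 342, 474 and 92.1. The small set of 25 genes that came on by day 3 and stayed on was led by DSTN, an actin-severing protein, with 32.5, 75.4, 94.1, 136 and 149 FPKM, by CGNL1, a tight junction protein, with 11.5, 61.7, 55.7, 76.9 and 58.1 FPKM, and by PLD3, with 27.7, 75.9, 83.2, 118 and 79.8 FPKM.

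Of 16 pluripotency genes, 6 were lower from day 2 to day 3 and 10 from day 3 to day 5, with a median of -1.11 in the second step. In these steps 5.91% and 7.89% of all genes were lower. POU5F1, the core pluripotency factor, had 241, 48, 2.47, 0.02 and 0 FPKM and was 19.4-fold (95% interval 16 to 23.8) lower on day 5. DNMT3B, a DNA methyltransferase of pluripotent cells, had 95.2, 62.5, 10.4, 5.03 and 1.93 FPKM. LIN28A, an RNA-binding protein that blocks let-7, kept its level longer, with 321, 382, 243, 115 and 8.99 FPKM. LIN28A was thus at 30.1% of its highest FPKM on day 7, when POU5F1 had 1 count left. Of 14 WNT feedback genes, 7 were lower and 2 higher from day 3 to day 5, with a median of -0.95. Among all genes 7.89% were lower and 6.22% higher in that step. SP5, a direct WNT target, had 47.7, 60.8, 0.79, 0 and 0.22 FPKM and was 77-fold (95% interval 52 to 119) lower on day 5. AXIN2, a negative regulator that WNT itself turns on, had 7.66, 18.8, 6.62, 3.98 and 5.17 FPKM, highest on day 3 and on day 5 near its day 2 level. TNFRSF19 did not follow them and had 0.15, 6.22, 27.3, 44 and 148 FPKM.

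Of 12 cardiac transcription factors with a switch, 1 was on by day 5, 7 by day 7 and 3 by day 10. These classes held 6.51%, 17.3% and 9.87% of all genes with a switch. Of 22 on the list, 5 were higher from day 2 to day 3, 10 from day 3 to day 5, 9 from day 5 to day 7 and 3 from day 7 to day 10, where 8.02%, 6.22%, 5.14% and 3.93% of all genes were higher. GATA4, GATA6 and HAND1 were present from day 2, GATA4 with 40.7, 26.8, 39.6, 71.9 and 71.7 FPKM, GATA6 with 50.6, 47.6, 47.3, 64 and 71.5 and HAND1 with 44.9, 103, 34.8, 98.4 and 77.2. These zinc finger and helix-loop-helix factors mark mesoderm before heart muscle. HAND1 was higher on days 3 and 7 than on day 5. HAND2, a helix-loop-helix factor of heart and limb, had 0.47, 0.71, 62, 68.9 and 40.5 FPKM and was 87.3-fold (95% interval 62.6 to 126) higher on day 5. ISL1, a factor of second heart field precursors, had 1.46, 17.1, 60, 47.8 and 17 FPKM. NKX2-5, the homeobox factor of the heart, had 0.24, 1.57, 110, 252 and 287 FPKM and was 70.1-fold (95% interval 52.1 to 96.6) higher on day 5. HAND2 and ISL1 were thus at 89.9% and 100% of their own highest FPKM on day 5, and NKX2-5 at 38.4%. MEF2C, which activates muscle promoters, had 0.05, 0.14, 16.4, 34.4 and 40.9 FPKM. MYOCD, a co-activator of serum response factor, had 0.04, 3.76, 16.1, 86.3 and 51.6 FPKM, and SMYD1, a methyltransferase needed to fold myosin, had 0, 0.08, 25.8, 99.9 and 168. MEF2C, MYOCD and SMYD1 were above 15 FPKM on day 5 and higher on day 7. TBX20, a T-box factor of the heart, had 1.59, 2, 7.7, 79.3 and 121 FPKM and was 10.3-fold (95% interval 8.95 to 11.9) higher on day 7. TBX5, a T-box factor of the first heart field, had 0.57, 0.51, 0.53, 2.34 and 5.43 FPKM and reached 43.1% of its highest on day 7. The order from the day 5 shares was ISL1 and HAND2, then MEF2C and NKX2-5 at 40% and 38.4%, then MYOCD and SMYD1 at 18.6% and 15.3%, then TBX20 at 6.36%. TBX5 had not left its day 2 level by day 5. With 1 library a day, no replicate spread separates the neighbours in this order.

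Second heart field and pharyngeal genes did not share 1 course. Of 16 above the filter, 8 were higher on day 3 and 7 on day 5, then 8 were lower on day 7 and 5 on day 10. In these steps 8.02% and 6.22% of all genes were higher, then 5.65% and 4.55% lower. Of 13 with a highest FPKM of at least 5, 2 had their highest FPKM before replating, 5 a day after it, 2 on day 5 and the other 4 on day 7. Among all 9147 protein-coding genes at that level, 2142, 2539, 1531 and 835 were highest on those days. NKX2-6, a homeobox factor of the pharynx and outflow tract, had 0, 26, 76.3, 117 and 74.3 FPKM. FOXC1, a forkhead factor of mesoderm, had 144, 39.5, 73.9, 15.8 and 3.84 FPKM. WNT5A, a non-canonical WNT ligand, had 103, 21.8, 38.8, 11.4 and 12.9 FPKM, so both were highest on day 2. WNT11, a ligand of the forming heart, had 2.58, 2.16, 7.15, 85.2 and 80.3 FPKM and was 11.9-fold (95% interval 10.5 to 13.6) higher on day 7.

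Most sarcomere genes with a switch were on by day 7, namely 8 of 11 thin filament, 9 of 11 thick filament and 9 of 15 Z-disc genes. Of all 1752 genes with a switch, 1.43% came on by day 3, 6.51% by day 5 and 17.3% by day 7 and stayed on. Over the 14 thin filament genes with a highest FPKM of at least 5, the median share of the gene's own highest FPKM was 0.766, 2.33, 28.2, 73.2 and 78.8% on days 2 to 10. For the 11 such thick filament genes it was 0.0131, 0.326, 10.9, 73.6 and 100%, and for the 17 of titin and the Z-disc 0.812, 1.46, 18.3, 63 and 100%. From day 3 to day 5, 9 of 15 thin filament genes were higher, 9 of 13 thick filament genes and 11 of 19 Z-disc genes. From day 5 to day 7 the numbers were 7, 9 and 15. Higher in these steps were 6.22% and 5.14% of all genes. On log2(FPKM + 1) the median difference from day 3 to day 5 was 2.04 for thin and 1.86 for thick filaments, and with TPM 2.02 and 3.54, so neither group is placed first. TPM1, a tropomyosin, was on by day 5 with 7.66, 33.2, 264, 376 and 279 FPKM. ACTC1, the actin of heart muscle, had 1.38, 1.91, 318, 2575 and 2147 FPKM and was 166-fold (95% interval 129 to 218) higher on day 5. Genes of the mitochondrial genome left out, it reached the highest level of the genes that were on by day 7. TNNT2, cardiac troponin T, had 0.07, 0.33, 15.2, 39.4 and 55.5 FPKM. TNNC1, the calcium-binding troponin, had 0.56, 9.54, 33.5, 531 and 359 FPKM and was 15.9-fold (95% interval 14.6 to 17.3) higher on day 7. In these thin filament genes the day 5 share ran from 70.3% in TPM1 through 27.5% in TNNT2 and 12.4% in ACTC1 to 6.3% in TNNC1.

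Among thick filament genes, the atrial light chain gene MYL7 had 1.02, 12.6, 204, 1585 and 1868 FPKM and was the only one named here above 10 FPKM on day 3. MYL4, the embryonic and atrial essential light chain, had 0.06, 3.13, 68.8, 438 and 459.6 FPKM. Both light chains were seen before the heavy chains. MYH6, the alpha heavy chain, had 0.01, 0.01, 119.6, 778 and 1013 FPKM and was 11917-fold (95% interval 2138 to 470720) higher on day 5, over 1 count on day 3. MYH7, the beta heavy chain, had 0.03, 0, 2.64, 241 and 209 FPKM and was 91.1-fold (95% interval 80.3 to 104) higher on day 7. MYH7 lies beside MYH6 on chromosome 14 with a similar sequence, and a share of the reads of each may belong to the other. MYL3, the ventricular essential light chain, had 0.37, 1.64, 3.15, 156 and 356 FPKM and was on by day 10. MYL2, the ventricular regulatory light chain, was at 0 counts until day 7 and had 0, 0, 0, 0 and 1.48 FPKM. On day 5 MYH6 was at 11.8% of its highest FPKM and MYH7 at 1.1%, MYL7 at 10.9% and MYL3 at 0.885%. TTN, the titin spring that spans the sarcomere, had 0.26, 2.07, 5.86, 21.4 and 32 FPKM. NEXN, a Z-disc protein that binds actin, had 0.78, 3.05, 24, 52.5 and 91 FPKM. SMPX, a small muscle protein, had 0, 0, 18.9, 114 and 178 FPKM. All of these were highest on day 10. PDLIM5, a Z-disc scaffold, had 6.5, 3.85, 22.1, 57.5 and 119 FPKM, above 3 on every day. MYOM1, which ties thick filaments at the M-band, had 0.41, 0.41, 1.9, 80.3 and 126 FPKM and was 42.2-fold (95% interval 36.5 to 49.1) higher on day 7.

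**Figure D2:**
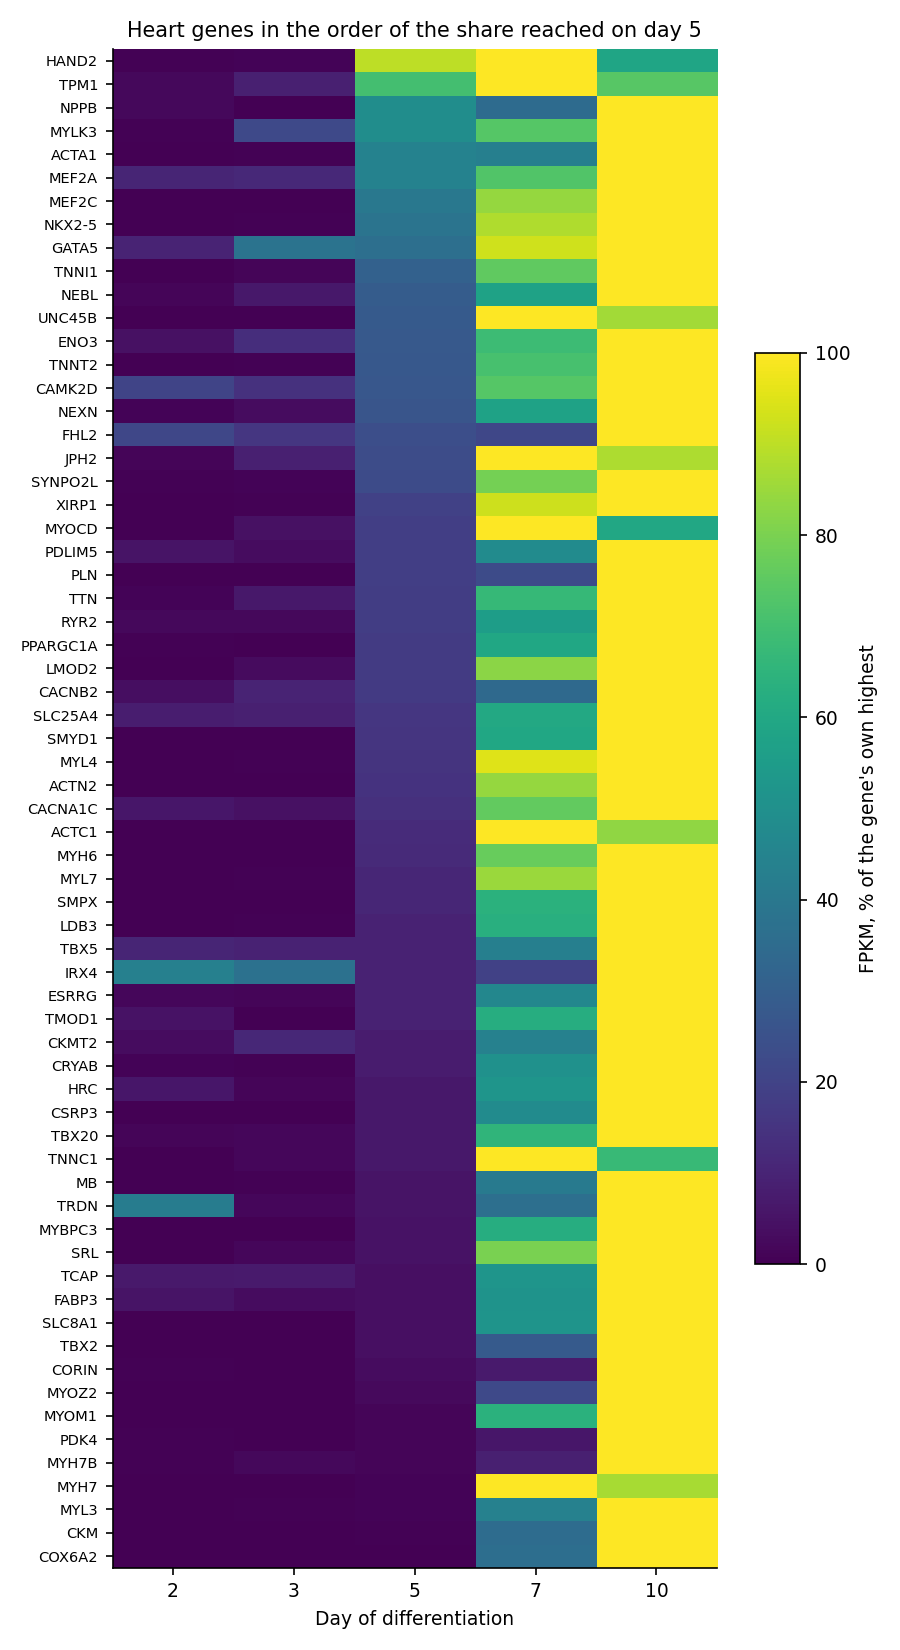
Each line is 1 of 65 heart genes that switched on and stayed on (transcription factors, filaments, Z-disc, calcium handling, hormones and muscle enzymes), coloured by its FPKM on days 2, 3, 5, 7 and 10 as a percentage of its own highest. Genes are sorted by the day 5 share, from HAND2 at 89.9% and TPM1 at 70.3% down to MYH7 at 1.1%, MYL3 at 0.885% and CKM at 0.624%, with COX6A2 at 0 last.

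The promoters of ACTC1 and MYL7 are shown because many sarcomere genes moved together. Each sequence covers the 150 bases before the RefSeq start (GRCh38.p14), read 5′ to 3′ on the gene's strand, with motif matches in capitals. ACTC1 and MYL7 had the highest FPKM of the genes on by day 7, with genes of the mitochondrial genome left out. The ACTC1 stretch lies at chr15:34795550-34795699 on the minus strand and the MYL7 stretch at chr7:44141333-44141482 on the minus strand, both directly upstream of the first exon.
ACTC1: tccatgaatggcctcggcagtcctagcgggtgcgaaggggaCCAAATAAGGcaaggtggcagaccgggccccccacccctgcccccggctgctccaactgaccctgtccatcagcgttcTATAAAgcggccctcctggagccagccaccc
MYL7: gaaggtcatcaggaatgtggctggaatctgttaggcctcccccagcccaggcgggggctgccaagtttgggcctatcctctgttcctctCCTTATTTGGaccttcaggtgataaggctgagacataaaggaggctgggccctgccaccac
Each holds a match to the CArG box, the site known to bind serum response factor, and ACTC1 holds TATAAA near its start. The CArG box was searched on both strands of the 250 bases before the start, and TATAAA in the last 50. Matches of different motifs did not overlap in the sequences printed. The promoters of MYH6, TPM1 and MYL3, which are not printed, held no CArG box, so the printed pair does not stand for all leading sarcomere genes. A CArG box was found in 3 of 13 thin filament genes with a promoter sequence, 2 of 8 thick filament genes and 2 of 14 Z-disc genes, and in 118 of 10389 protein-coding genes above the filter (1.14%). By class it was found in 3.35% of genes on by day 7, 5.38% of genes on by day 10 and none of the 81 genes on by day 5. Classes of genes that did not stay on held it too. It was in 2.16% of genes off by day 5, 0.714% off by day 7 and 1 of 12 off by day 10. Of genes on for a time 0.837% held it, and of those with other patterns 4.55% (3 of 66). None of 173 genes off by day 3 and none of 21 on by day 3 did. The shares were not adjusted for base composition, and a match is a description of the letters only.

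Calcium handling genes were most often higher on day 7, and channels and connexins went both ways. Of 17 calcium handling genes, 5 were higher from day 3 to day 5, 9 from day 5 to day 7 and 4 from day 7 to day 10. In those steps 6.22%, 5.14% and 3.93% of all genes were higher. The median share of the highest FPKM of calcium handling genes was 17.4% on day 5, between the thick and the thin filaments. Of 15 channels and connexins, 4 were higher and 2 lower from day 3 to day 5, and 5 higher and 4 lower from day 5 to day 7. Lower in those steps were 7.89% and 5.65% of all genes. RYR2, the calcium release channel, had 0.67, 0.66, 5.48, 16.9 and 30.4 FPKM, and SLC8A1, the sodium-calcium exchanger, had 0.16, 0.01, 2.11, 27 and 52.1. PLN, the brake on the calcium pump of the sarcoplasmic reticulum, had 0.02, 0, 13.8, 17.1 and 74.6 FPKM and was 4.36-fold (95% interval 4.03 to 4.73) higher on day 10. PLN was therefore at 22.9% of its highest FPKM on day 7, when RYR2 was at 55.6%. HCN4, the pacemaker channel, had 2.13, 2.05, 1.81, 13.8 and 21.9 FPKM. POPDC2, a cAMP-binding membrane protein of the heart, had 0.2, 1.22, 12, 59.9 and 127 FPKM, and its relative BVES had 1.12, 0.59, 2.08, 12.9 and 44.2 FPKM. GJA1, the connexin of early and working heart cells, went the other way with 428, 378, 75.4, 32.8 and 5.21 FPKM and was 5.02-fold (95% interval 4.85 to 5.2) lower on day 5.

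Of 15 cardiac hormone and muscle enzyme genes, 10 were higher on day 7 and 8 on day 10, beside 5.14% and 3.93% of all genes. CKM, the muscle creatine kinase, had 0.44, 0.28, 1.18, 66.7 and 189 FPKM and was 2.84-fold (95% interval 2.68 to 3.01) higher on day 10 than on day 7. FABP3, a fatty acid carrier of heart, had 3.92, 2.46, 3.09, 38.9 and 75.8 FPKM. CKM and FABP3 were each highest on day 10. NPPB, a natriuretic hormone, had 1.53, 0.21, 38.4, 27.3 and 78.2 FPKM, first above 30 on day 5. NPPA, its atrial relative, stayed low with 0.04, 0.85, 1.23, 0.6 and 4.64 FPKM. The hormone genes thus differed in both time and level. LRRC10, a heart-restricted leucine-rich repeat protein, had 0, 0, 0.03, 2.53 and 37.2 FPKM and was 14.7-fold (95% interval 11.8 to 18.4) higher on day 10. PDK4, which shifts muscle from glucose to fat as fuel, had 0.08, 0, 0.17, 0.68 and 11.5 FPKM. LRRC10 and PDK4 were below 3 FPKM until day 7. VCAM1, an adhesion receptor used to sort heart muscle cells, had 0, 0.01, 4.1, 84.1 and 379 FPKM. With genes of the mitochondrial genome left out, it led the class of 173 genes on by day 10. Among the genes that differed most from day 7 to day 10, NELL1, a secreted glycoprotein, had 0.01, 0.76, 0.95, 0.89 and 15 FPKM. TFPI2, a serine protease inhibitor, had 1.64, 0.39, 0.46, 1.61 and 22.7 FPKM. Both were at a low level until day 7.

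Some genes of oxidative metabolism were higher in the last steps, where 5.14% and 3.93% of all genes were. None of 18 TCA cycle genes differed up to day 5, 4 were higher on day 7 and none on day 10, with medians of 0.63 and 0.26 in the last steps. IDH3A, a subunit of isocitrate dehydrogenase, had 2.11, 1.51, 2.35, 6.8 and 10.7 FPKM. Of 16 genes of fatty acid oxidation, 3 were higher on day 7 and 2 on day 10. HADHB, of the trifunctional protein, had 16.3, 16.1, 20.1, 35.2 and 72.9 FPKM, and CPT1A, which admits fatty acids to the mitochondrion, had 5.87, 1.19, 0.69, 1.27 and 11.5. CPT1A was low on days 3 to 7 and highest on day 10. Over the same steps the mitochondrial genome's share of counts went from 5.05% on day 5 to 6.14% on day 7 and 10.3% on day 10, and its part in these levels was not tested.

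**Figure D3:**
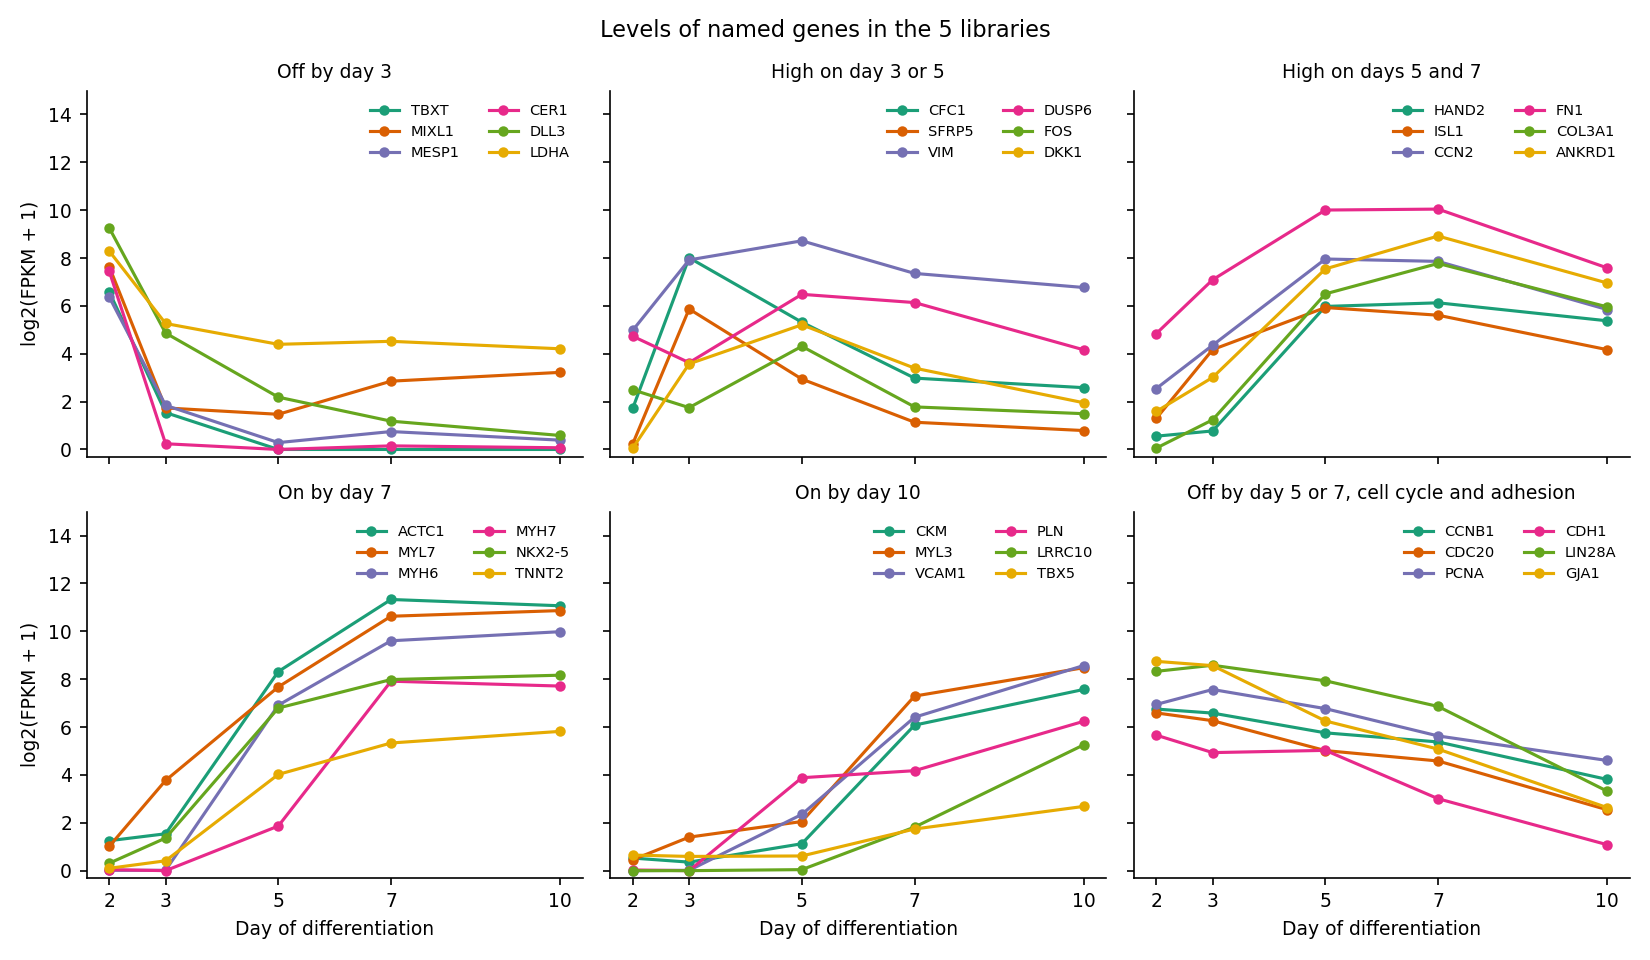
Levels of 36 named genes as log2(FPKM + 1) against day of differentiation, 1 point per library, grouped by when they were high. TBXT, MESP1 and CER1 are near 0 from day 5, CFC1 and SFRP5 peak on day 3, FN1 and CCN2 are high on days 5 and 7, and LRRC10 and TBX5 are highest on day 10.

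A group of genes was on for a time and off again by day 10, and matrix and cytoskeletal genes led it. FN1, fibronectin, had 27.7, 135, 1026, 1055 and 191 FPKM and was 7.58-fold (95% interval 7.49 to 7.67) higher on day 5. COL3A1 had 0.04, 1.36, 89.6, 218 and 61.2 FPKM and COL1A1, a fibrillar collagen of connective tissue, had 3.09, 102, 212, 181 and 20.6. COL1A1 was 8.81-fold (95% interval 8.47 to 9.16) lower on day 10. From day 7 to day 10, 7 of 19 collagens and 8 of 24 laminins and glycoproteins were lower, where 4.55% of all genes were lower. Within these lists NID2, a nidogen of basement membranes, stayed on from day 5 with 3.37, 22.7, 132, 119.6 and 108 FPKM, and LAMB2, a laminin of muscle basement membranes, had 8.65, 35.1, 41.9, 67.9 and 115. COL6A1, a subunit of the microfibrillar collagen, was highest on day 2, with 394, 176, 77.3, 63.4 and 48.7 FPKM.

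Known targets of YAP, a co-activator that responds to spreading and tension, were high on days 5 and 7. The median share of their own highest FPKM was 38.6, 68.3, 100, 88.8 and 32.5% over the 15 genes. CCN2, a secreted matricellular protein, had 4.84, 19.5, 248, 231 and 56.5 FPKM and was 12.7-fold (95% interval 11.7 to 13.8) higher on day 5. Its relative CCN1 had 3.61, 7.67, 57.6, 43.1 and 7.89 FPKM. ANKRD1, a titin-binding repeat protein that is also a Z-disc gene, had 2.01, 7.06, 186, 483 and 123 FPKM. AMOTL1 did not share this course and had 17, 25.2, 8.46, 6.5 and 4.61 FPKM. Of the 15, 6 were higher and 1 lower on day 3, 3 higher and 1 lower on day 5, and 1 higher on day 7. Among all genes 8.02%, 6.22% and 5.14% were higher in these steps, and 5.91% and 7.89% lower in the first ones. On day 10, 7 of the 15 were lower than on day 7, where 4.55% of all genes were lower. Of 14 immediate early genes above the filter, 4 were lower in the first step and 6 higher in the second, beside 5.91% and 6.22% of all genes. EGR1, a zinc finger factor that answers serum within minutes, had 3.56, 2.03, 12, 2.47 and 1.24 FPKM. FOS, a subunit of AP-1, had 4.63, 2.36, 18.8, 2.43 and 1.82 FPKM. Both were highest on day 5. IER3 had 83.8, 9.1, 27.5, 50 and 29.4 FPKM, highest on day 2, and KLF2, a factor known to answer flow, had 0.04, 0.23, 3.58, 3.83 and 7.25 FPKM, highest on day 10. DUSP6, the phosphatase that FGF signalling induces, had 25.5, 11.4, 88.4, 69.5 and 16.9 FPKM, with a like peak on day 5. The 150 bases before the starts of EGR1 (chr5:138465329-138465478, plus strand) and CCN2 (chr6:131951373-131951522, minus strand) are shown for these genes of the day 5 peak.
EGR1: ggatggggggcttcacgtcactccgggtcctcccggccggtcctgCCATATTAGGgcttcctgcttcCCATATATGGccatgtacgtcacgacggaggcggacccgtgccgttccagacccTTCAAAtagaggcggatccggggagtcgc
CCN2: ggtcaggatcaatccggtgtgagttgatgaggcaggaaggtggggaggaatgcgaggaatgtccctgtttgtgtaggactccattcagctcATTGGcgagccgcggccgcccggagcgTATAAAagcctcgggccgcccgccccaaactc
EGR1 holds CArG boxes and TTTGAA as read on the other strand, and CCN2 holds TATAAA and, on the other strand, CCAAT. Among immediate early genes 1 of 11, and among YAP targets none of 11, held a CArG box in 250 bases.

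Of 18 cadherins and epithelial genes, 3 were higher and 4 lower on day 3, and 2 were lower on day 5. On day 7, 1 was higher and 5 lower, and on day 10 3 were lower. Of 13 integrins, 3 were higher and 1 lower on day 3, and 1 higher and 4 lower on day 5. On day 7, 4 were higher and 1 lower, and none differed on day 10. In these steps 8.02%, 6.22%, 5.14% and 3.93% of all genes were higher, and 5.91%, 7.89%, 5.65% and 4.55% lower. Some of the list counts, such as 1 of 18 higher on day 7, lay near those shares. The genes named next are single members and do not stand for these lists. CDH1, the epithelial cadherin, had 49.6, 29.5, 31.6, 7.03 and 1.12 FPKM, and CDH2, the cadherin of heart muscle junctions, had 23.6, 19.8, 22.5, 108 and 195. The ratio of CDH2 to CDH1 was 0.477 on day 2, then 0.713 (95% interval 0.677 to 0.75) by day 5, 15.4 (14.2 to 16.7) by day 7 and finally 173.5 (143.1 to 212). ITGA5, the fibronectin receptor subunit, had 77.6, 17, 6.73, 10.7 and 6.03 FPKM and was 4.56-fold (95% interval 4.33 to 4.8) lower on day 3. ITGA7, a laminin receptor subunit of muscle, had 4.72, 7.76, 10.4, 28.1 and 20.1 FPKM, and ITGAV, a subunit of receptors for vitronectin and fibronectin, had 11.3, 21.4, 50.7, 118 and 104. The ratio of ITGA7 to ITGA5 was 0.0609 at the start, 0.456 a day later, 1.54 on day 5 and 3.33 at the end. The ratio of the integrin pair thus passed 1 between days 3 and 5 and that of the cadherin pair between days 5 and 7. SNAI1, a repressor of CDH1, had 99.7, 4.76, 3.38, 1.76 and 1.04 FPKM and was 20.9-fold (95% interval 17.3 to 25.5) lower on day 3. CLDN6, a claudin of embryonic epithelium, stayed until day 7 with 152, 171, 96.2, 94.4 and 34.8 FPKM. Of 18 focal adhesion components 1 was lower in the first step, 1 higher in the second, 3 higher in the third and 3 lower in the last, where 5.91%, 6.22%, 5.14% and 4.55% of all genes were so. PKP2, a desmosome protein of heart muscle, was on by day 5 with 2.01, 39.2, 117, 114 and 131 FPKM.

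**Figure D4:**
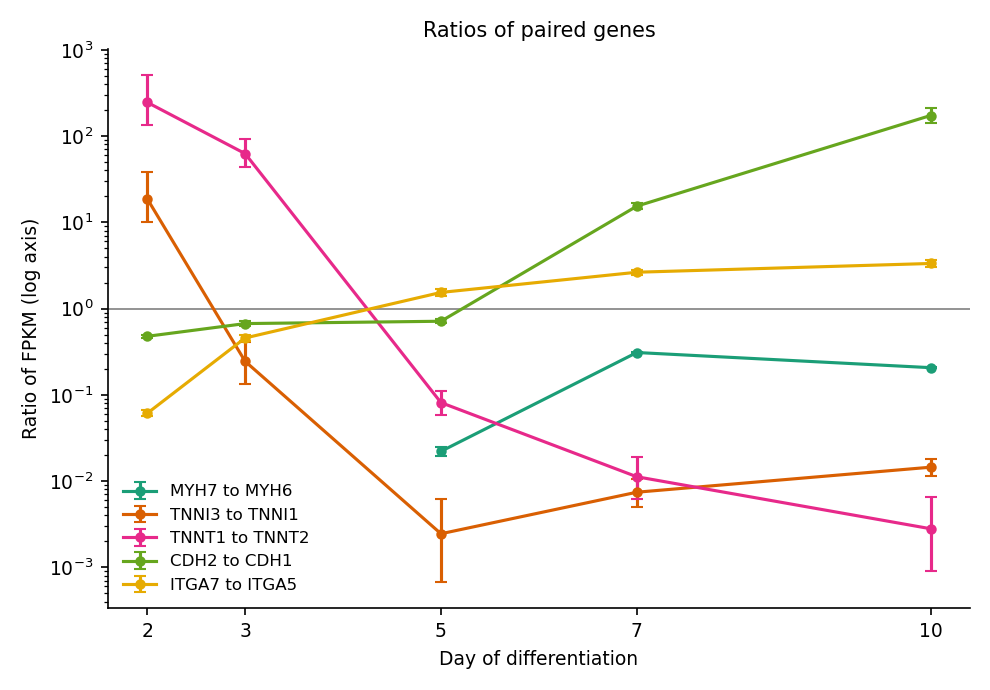
Ratio of FPKM within 5 pairs of related genes against day of differentiation, on a log axis, with exact 95% intervals for counting error. Points with 3 or fewer counts in either gene are left out. CDH2 to CDH1 passes 1 between days 5 and 7, ITGA7 to ITGA5 passes 1 between days 3 and 5, and TNNT1 to TNNT2 is below 1 from day 5.

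Pairs of contractile isoforms differed in time. The ratio of TNNT1, the slow skeletal troponin T, to TNNT2 was 246.7 before replating, then 62.7, by day 5 only 0.0811 and at the end 0.00279. The ratio of MYH7 to MYH6 was 0.0221 (95% interval 0.0194 to 0.0251) by day 5, then 0.309 (0.305 to 0.314) and in the last library 0.206 (0.203 to 0.209). From day 5 MYH6 was the higher of the heavy chains. The fetal troponin I, TNNI1, had 0.08, 2.21, 52.7, 128 and 169.9 FPKM and the adult one, TNNI3, had 1.48, 0.54, 0.13, 0.95 and 2.46, a ratio of 0.0145 on day 10. For MYL2 to MYL7 the ratio was 0.000795 on day 10 (0.000543 to 0.00112).

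By the steps, some replication genes were lower in each step from day 3 on, and most mitotic genes on day 10. By the rule for switches, 2 of 23 mitotic genes with a switch were off by day 3, 11 by day 5, 8 by day 7 and 1 by day 10. Of 19 replication genes with a switch, 8 were off by day 5 and 9 by day 7. These classes held 14.2%, 17.1%, 9.82% and 0.742% of all genes with a switch. By these classes the mitotic genes were not later than the replication genes. Of 24 genes of DNA replication, 2 were higher and none lower on day 3, where 8.02% of all genes were higher and 5.91% lower. Of 23 with a highest FPKM of at least 5, 21 were highest on day 3, beside 2539 of 9147 protein-coding genes at that level. The median difference of the replication list on day 3 was 0.46 on log2(FPKM + 1). With median-of-ratios scaling that median was 0.30, so its sign did not turn. In the next steps 9, 5 and 12 of the replication genes were lower, where 7.89%, 5.65% and 4.55% of all genes were lower. PCNA, the sliding clamp of replication, had 122, 189, 108, 48.5 and 23.3 FPKM, and MCM3, of the replicative helicase, had 85, 118, 59.9, 38.4 and 26.6 FPKM. Of 24 genes of G2 and mitosis, 2 were lower in the first step, 5 in the second, none in the third and 22 in the last. In those steps 5.91%, 7.89%, 5.65% and 4.55% of all genes were lower. CCNB1, a mitotic cyclin, had 107, 94.9, 53.1, 40.6 and 13.1 FPKM. CDC20, an activator of the anaphase-promoting complex, had 95.5, 76, 31.4, 23 and 4.83 FPKM and was 4.75-fold (95% interval 3.97 to 5.71) lower on day 10. TOP2A, topoisomerase II of dividing cells, had 89.2, 93.7, 59.2, 39.6 and 10.7 FPKM, and UBE2C had 88.3, 62.6, 43.2, 26.2 and 4.29. Each of these mitotic genes was lowest on day 10. CDKN1A, the p21 inhibitor, was lowest on day 5 with 16.8, 2.2, 0.81, 7.24 and 8.16 FPKM.

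The promoters of CCNB1 (chr5:69167000-69167149, plus strand) and CDC20 (chr1:43358831-43358980, plus strand) are shown because the mitotic genes moved together.
CCNB1: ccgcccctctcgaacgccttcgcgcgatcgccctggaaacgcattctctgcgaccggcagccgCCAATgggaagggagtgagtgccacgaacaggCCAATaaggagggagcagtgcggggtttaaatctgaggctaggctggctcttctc
CDC20: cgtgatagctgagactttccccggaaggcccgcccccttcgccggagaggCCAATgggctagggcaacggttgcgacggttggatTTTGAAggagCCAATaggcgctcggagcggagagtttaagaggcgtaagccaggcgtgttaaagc
Capitals mark CCAAT, the box bound by NF-Y, and in CDC20 also TTTGAA, the cell cycle homology region of late cell cycle promoters. Searched on both strands of 250 bases, CCAAT was in 17 of 19 G2 and mitosis genes with a promoter sequence (89.5%), 12 of 21 replication genes (57.1%) and 35.1% of all 10389. TTTGAA was in 11 of 19 (57.9%), 1 of 21 (4.76%) and 8.21%. Among the switch classes, genes off by day 7 held CCAAT in 50.7% and TTTGAA in 15% of promoters. For genes off by day 5 the shares were 40.3% and 13%, and for those off by day 3 34.1% and 5.78%. Of 12 promoters of genes off by day 10, 16.7% held CCAAT and 16.7% TTTGAA. These shares describe the letters, are known features of such promoters and were not tested.

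Signalling genes were high at different times. Of 17 BMP response genes, 6 were higher in the first step, 8 in the second and 4 in the third, where 8.02%, 6.22% and 5.14% of all genes were higher. In those steps 1, 2 and 2 of the list were lower, beside 5.91%, 7.89% and 5.65% of all genes. BAMBI, a decoy receptor that BMP induces, had 41.5, 75, 215, 435 and 337 FPKM. ID2, an inhibitor of helix-loop-helix factors, had 31.8, 37, 107, 141 and 276 FPKM, so both were above their day 2 level from day 3. The ligand BMP2 had 33.6, 9.2, 29.5, 109 and 92.9 FPKM, with a dip on day 3, and BMP5 had 0.04, 15.1, 101, 20 and 108. Secreted WNT antagonists were not high together. CER1 was high on day 2, SFRP1 on day 3 with 57.3, 182, 85.4, 32.4 and 68.5 FPKM, and DKK1, which blocks the LRP co-receptors, on day 5 with 0.04, 10.9, 36, 9.55 and 2.87. SFRP2 was lower in each library than in the one before, with 106, 39.2, 7.91, 0.53 and 0.07 FPKM. In the FGF feedback list, SPRY4 had 52.4, 8.7, 4.91, 19.4 and 6.32 FPKM and the receptor FGFR1 30.5, 46.8, 21.4, 7.45 and 4.11. For retinoic acid, CYP26A1, which degrades it, was high on day 2 alone with 32.4, 0.12, 0, 0.16 and 0.04 FPKM. The binding protein CRABP2 had 363, 477, 114, 69.3 and 48.5 FPKM and the receptor RARB 0.08, 8.78, 25.3, 6.13 and 5.08, highest on day 5. CYP26A1 was thus low on day 3, before RARB was highest.

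**Figure D5:**
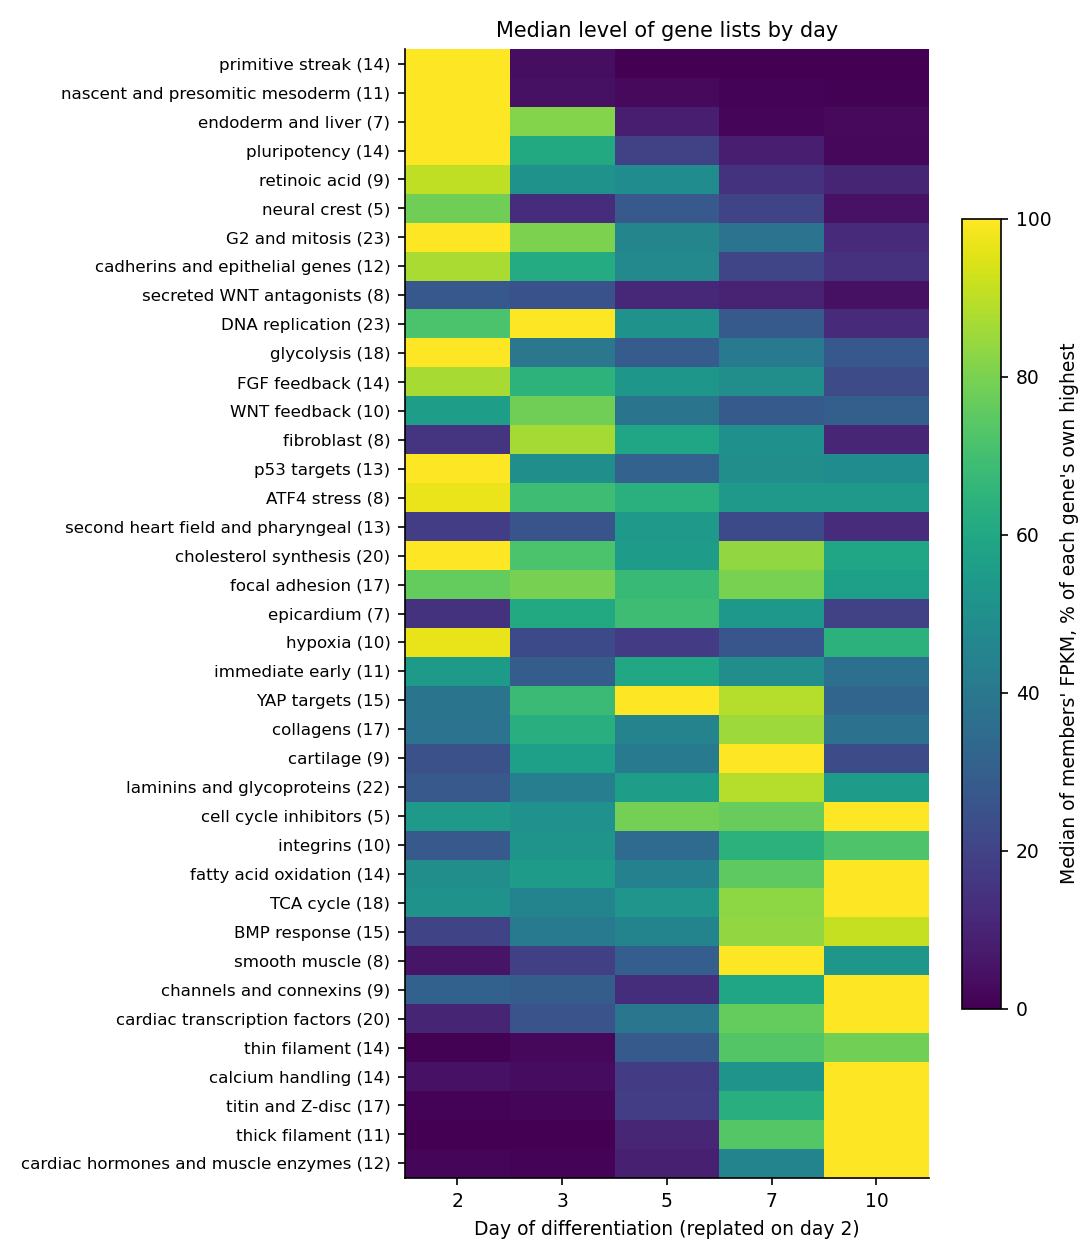
Median level of 39 gene lists on each day, as a percentage of each member's own highest FPKM, with the number of members that reached an FPKM of 5 in brackets. Lists are sorted by the day on which their level is centred. Primitive streak and presomitic lists are at 100% on day 2 and below 5% on day 3, replication is at 100% on day 3, YAP targets on day 5, and filament, calcium and muscle enzyme lists are highest on day 10.

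Markers of other cell types that such a culture could hold differed between lists. Below the filter were 8 of 18 endoderm and liver genes, 8 of 16 endothelial, 12 of 15 blood, 10 of 16 neural and 15 of 17 skeletal muscle genes. The summed FPKM of the endoderm and liver list over the days was 78.2, 60.4, 35.2, 33.5 and 31. EPCAM, an epithelial adhesion molecule, made up the largest part of it on day 2 with 37.1, 32.4, 28.4, 14.6 and 8.52 FPKM, and AFP and HNF4A stayed below 0.3 FPKM. APOA1, an apolipoprotein, had 0, 2.27, 0.66, 13.2 and 17.4 FPKM, so it was above 10 from day 7 while AFP and HNF4A were not. In the endothelial list PECAM1 and CDH5 stayed below 0.4 FPKM, whereas KDR, a receptor shared by early mesoderm and endothelium, had 62.8, 40.7, 11.9, 29.7 and 119. LMO2, a blood and endothelial cofactor, had 1.91, 0.25, 8.64, 30.2 and 26 FPKM, while GATA1 and PTPRC stayed below 0.05. The summed FPKM of the endothelial list was 91.6, 71.8, 28.5, 47.8 and 127, highest on day 10 through KDR, and that of the blood list 3.13, 8.84, 9.73, 30.8 and 26.3. For the neural list it was 117, 109, 86.7, 148 and 104. NES, the intermediate filament nestin that muscle precursors also make, made up over 50% of the neural sum in each library but that of day 5, with 60.5, 82.9, 40.5, 130.4 and 99.2 FPKM, and was chosen after its values were seen. SOX2, a factor of pluripotent and neural cells, had 8.47, 12.1, 41.6, 16.9 and 4.89 FPKM, highest on day 5. The muscle determination genes MYOD1, MYOG and MYF5 stayed below 0.2 FPKM.

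The marker lists of connective tissue and smooth muscle overlap the lists above. The fibroblast and cartilage lists each hold 3 genes of the collagen list, and the smooth muscle list holds ACTA2 of the thin filament list. Above the filter were 9 of 12 smooth muscle, 10 of 14 fibroblast, 14 of 16 cartilage and 9 of 14 epicardial genes. The summed FPKM over the days was 39.8, 87.7, 242, 815 and 339.8 for smooth muscle. For fibroblasts it was 144, 361, 442, 515 and 134 FPKM, for cartilage 65.4, 288, 881, 1214 and 553 and for epicardium 418, 1210.2, 1025, 1239 and 281. Each of these sums was highest on day 7. By the median share of the highest FPKM, smooth muscle and cartilage were highest on day 7, epicardium on day 5 at 68.8% and fibroblasts on day 3 at 86.5%. ACTA2, the smooth muscle actin that early heart muscle also makes, had 0.22, 0.34, 85, 382 and 73.4 FPKM and was 247-fold (95% interval 147 to 453) higher on day 5. MYH11, the myosin that defines smooth muscle, stayed at or below 0.15 FPKM. Of the fibroblast list, DCN and DPT stayed at or below 0.05 FPKM, and of the epicardium list WT1 and TBX18 stayed at or below 0.11. The members with the highest FPKM were COL3A1 and COL1A1 for fibroblasts, COL2A1 for cartilage and KRT18 and KRT8 for epicardium. The part of any such cells in the levels of the matrix genes was not tested.

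A straight trend over days could be tested across the 5 libraries, with the quasi-likelihood test of edgeR and Benjamini-Hochberg adjustment over all 17930 genes. It measures departures from a line within 1 series of cultures, with 3 residual degrees of freedom, and not the spread between cultures. At an adjusted p of 0.05, 1132 genes (6.31%) rose and 1397 (7.79%) fell over the days. Without the day 3 library 132 rose and 336 fell, without day 7 392 rose and 467 fell, and without day 10 301 rose and 279 fell. CKM rose by 1.33 ± 0.22 (SE) on the log2 scale per day, with an adjusted p of 0.0182 by edgeR. CDC20 fell by 0.50 ± 0.05 (SE) per day on that scale, with an adjusted p of 0.01. The edgeR test gave no call for ACTC1, MYH6 and NKX2-5, with adjusted p of 0.0678, 0.131 and 0.111, whereas limma on log2(FPKM + 1) gave 0.0243, 0.0199 and 0.0289. Conversely TBXT, which was at 0 from day 5, fell with an adjusted p of 0.00356 by edgeR and was not called by limma, at 0.143. Among lists, 20 of 24 replication and 20 of 24 mitosis genes fell and none rose. In the pluripotency list 13 of 16 fell. Among contractile lists, 10 of 17 calcium handling, 11 of 19 Z-disc, 7 of 13 thick filament and 3 of 15 thin filament genes rose. These list counts describe the same values as the steps and are no separate evidence.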

How the data were processed

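RNA was sequenced in bulk from H1 cells, with 1 library for each of days 2, 3, 5, 7 and 10. The authors deposited 1 table with read counts per gene and with FPKM values, made per the labels and processing notes with cutadapt 1.9.1, HISAT2 2.0.1 and HTSeq 0.6.1 on hg38; DESeq2 is named there without a version. The deposited exonic length of each gene, whose unit is bases, was used with the counts to recompute FPKM, and the recomputed values differed by at most 0.005. Whether counting used strand is not given in the sources used here, so overlapping genes, and near-identical ones such as MYH6 and MYH7, MESP1 and MESP2, CFC1 and CFC1B, ENO1 and the keratins, are uncertain.

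Genes that reached an FPKM of 1 in any of the 5 libraries were kept. Differences between days were taken on log2(FPKM + 1), with no test. Intervals of ratios were exact (Clopper-Pearson, 95%) and cover counting error only. In the libraries, 3 counts in a gene of 1 kb equal 0.148 to 0.219 FPKM. Named genes were the 5 with the largest difference in each direction per step (at least 30 counts in the higher library). The 5 with the highest FPKM per class were also named, genes of the mitochondrial genome left out. Further ones were at most 4 members per list by FPKM, pairs of isoforms and fixed anchors. The trend over days was fitted to the counts with edgeR 4.0.16 (quasi-likelihood, TMM) in R 4.3.3 and tested on simulated data. DESeq2 1.42.0 and limma 3.58.1 were alternatives. Promoters came from RefSeq (GRCh38.p14). The members and gene lists were chosen with earlier results of these data known.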

Additional observations from a re-analysis of the deposited data

How the results depend on the processing

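With 1 library a day, differences between days have no replicate error and rest on counting error alone. No paired analysis was possible because each day has 1 library and the labels carry no replicate numbers. For the 4 steps in order, the number of genes that differed was 4740, 4764, 4029 and 3405 with a pseudocount of 0.1, 874, 994, 747 and 614 when the mean FPKM had to reach 5, 4558, 4396, 3477 and 2929 with TPM, and 421, 357, 233 and 141 for a difference of at least 2. TPM values are larger than FPKM, so a pseudocount of 1 and a filter of 1 act at a lower level. No setting without a single day applies to a step, which uses a pair of libraries. The class counts depended on the threshold. With 25% of the highest FPKM as on, 183 genes were on by day 3, 224 by day 5 and 50 by day 10, 123 were off by day 3, 151 by day 5 and 356 by day 10, and 136 were on for a time. With 75%, 0 were on by day 3, 17 by day 5, 148 by day 7 and 395 by day 10, 393 were off by day 3, 13 by day 7 and 1 by day 10, and 521 were on for a time. With the midpoint of log2(FPKM + 1), 95 were on by day 3, 236 by day 5 and 60 by day 10, 142 were off by day 3, 261 by day 7 and 108 by day 10, and 200 were on for a time. With a pseudocount of 0.1 in the span, 48 were on by day 3 and 29 off by day 10. With a highest FPKM of at least 20, 894 genes had a switch, 9, 56, 192 and 75 on by days 3, 5, 7 and 10, off by days 3, 5 and 7 111, 165 and 85, and 153 on for a time. With TPM, 3200 had a switch, 62 and 216 on by days 3 and 5, 429, 573, 340 and 43 off by days 3, 5, 7 and 10, and 723 on for a time. Leaving out day 3, 5 or 7 gave 33 to 43 genes on by day 3, 173 to 450 on by day 10, 306 to 474 off by day 5, 183 to 464 off by day 7, 23 to 185 off by day 10 and 191 to 276 on for a time; genes of the day left out passed to the next class by construction. The trend was called for 4734 genes by DESeq2, 1584 with a mean FPKM of at least 5, and 468 to 1823 without 1 library. Of the 468 without day 3, 457 were among the 2529. The cause of the other differences was not tested. Of 425 alternatives for 85 named genes, 345 moved by less than the counting interval of the value, 80 moved by more and 0 turned direction.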

Other observations

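Several groups outside the comparisons above were measured in the same 5 libraries. Of 20 genes of cholesterol synthesis, 4 were lower from day 3 to day 5 and 1 was higher, with a median difference of -0.50 on log2(FPKM + 1), and the median from day 5 to day 7 was 0.55 with no gene past 1. Of 13 p53 targets, 3 were lower and 1 higher from day 2 to day 3, with a median of -0.83, and 4 were higher from day 5 to day 7, with a median of 0.68. Of 12 genes of the ATF4 stress response, 1 was higher and none lower on day 3, where 8.02% of all genes were higher and 5.91% lower. The ATF4 count of higher genes thus lay near the share of all genes. From day 3 to day 5, 6.22% of all genes were higher and 7.89% lower, and from day 5 to day 7, 5.14% were higher. Of 7 neural crest genes above the filter, 4 were lower on day 3, with a median of -1.26. Among neural genes, OTX2, a factor of forebrain and early epiblast, had 44, 6.01, 4.08, 0.32 and 0 FPKM on days 2, 3, 5, 7 and 10, and PAX6 stayed at or below 0.11 FPKM.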
